A study of Homo sapiens with 6 samples.

Results

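The genes described here are 41 genes induced by interferon, taken from a list of names. The rule for membership uses no measured value, but the list was drawn up with earlier results of these data known. All 41 were found among the 56638 gene names of the count table, and 35 of them had enough reads to be tested. The 41 comprise transcription factors of the interferon signal (STAT2, IRF1, IRF7, IRF9), RNA sensors (DDX58, IFIH1), the ISG15 conjugation system (ISG15, USP18, HERC5, HERC6), the IFIT, OAS, MX, GBP and IFITM families, BST2, ISG20, RSAD2 and 12 further genes known mainly by their induction. RNA was sequenced from HL60 cells, a human promyelocytic leukaemia line cultured in RPMI medium with serum. One group carried a CRISPR/Cas9-mediated deletion of SKI, which encodes a transcriptional co-repressor of SMAD proteins, and the other was a CRISPR/Cas9 control. Each group held 3 libraries of 1 line, numbered 3 in the knockout titles and 1 in the control titles, so a difference between the groups cannot be told apart from a difference between those lines. No interferon, infection or other treatment is named in the labels, and whether the replicates were separate cultures is not said. The p-values therefore describe variation among these libraries alone, part of which may be technical.

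Interferons are secreted proteins that cells release when they sense viral nucleic acid. Type I interferons bind the receptor formed by IFNAR1 and IFNAR2, whose kinases JAK1 and TYK2 phosphorylate STAT2. With IRF9 it takes part in a complex that binds the interferon-stimulated response element (ISRE) in promoters, while interferon gamma acts through IFNGR1 and IFNGR2 and the gamma-activated sequence (GAS). The induced genes encode proteins that block virus entry, degrade or sense foreign RNA, modify other proteins and feed back on the signal. In myeloid cells many of them are also expressed at a low level without added interferon.

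Library totals ran from 47930276 to 58553247 counts. Between 34446 and 61016 counts per library fell on the 41 genes, and 3 counts, the limit that a count of 0 allows, corresponded to 0.0509 to 0.0628 CPM (counts scaled to a common library size), a bound that covers counting error only. SKI itself stood at 63.9, 83.5 and 88.5 CPM across the control and at 59.6, 40.7 and 42.0 CPM across the knockout (log2 fold change -0.73, SE 0.19, edgeR adjusted p = 0.0282), with no overlap between the groups. That call was lost in 4 of 14 alternative analyses, namely without control replicate 2 (adjusted p = 0.109) or 3 (0.136), without knockout replicate 2 (0.0769) and with scaling by library totals (0.0673). The promyelocytic identity of the line was visible in MPO, at 11600 to 14000 CPM in the control and 2560 to 8540 CPM in the knockout, whereas ELANE was at most at 0.0679 CPM in any library. The summed level of 10 promyelocyte markers was 14000 to 15800 CPM in the control and 3460 to 9900 CPM in the knockout. Of the 9 tested markers 7 fell, against 5.63% of all tested genes, and the part of these markers in the results below was not tested. Most markers of other blood cells were low: all 5 monocyte markers, all 4 erythroid markers and 5 of 6 lymphoid markers stayed under 0.3 CPM in every library. The other lymphoid marker, NKG7, was at 11.7 to 17.2 CPM across the libraries of both groups. GZMB, a marker of plasmacytoid dendritic cells as well as lymphocytes, had no read. The summed level of 5 plasmacytoid dendritic cell markers, with TCF4 the largest part in every library, was 10.1 to 15.8 CPM in the control and 2.53 to 3.99 CPM in the knockout. Of these markers IL3RA went the other way, at 0.329 ± 0.155 and 0.621 ± 0.272 CPM (SD, n = 3), with overlapping groups. In bulk RNA, fewer cells expressing a gene and less RNA per cell cannot be told apart.

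Promoter windows, shown because interferon acts through the ISRE and GAS, ran from 250 bases before to 50 bases after the gene start. They were found in RefSeq (build GRCh38.p14, not the build of the counts) for 33 of the 41 genes. On both strands, the ISRE core GAAANNGAAA was present in 20 of 33 windows, or 60.6%, against 3.57% of 35116 RefSeq promoters of that length. A variant with a 1-base spacer, GAAANGAAA, was present in 9 windows (27.3%, against 3.12% of all promoters). The GAS core TTCNNNGAA was present in 8 (24.2%, against 7.66%). The 120 bases before the start are printed for the 5 genes that were higher in the knockout and have a window, and for ISG15, IFIT1 and IFITM1, which did not pass the test. Capitals mark matches to any of these 3 motifs, which can overlap, and transcribed bases are left out.
IFITM3, chr11:320861-320980, minus strand: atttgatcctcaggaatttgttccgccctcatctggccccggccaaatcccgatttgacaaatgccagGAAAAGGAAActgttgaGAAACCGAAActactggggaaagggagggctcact
GBP4, chr1:89198943-89199062, minus strand: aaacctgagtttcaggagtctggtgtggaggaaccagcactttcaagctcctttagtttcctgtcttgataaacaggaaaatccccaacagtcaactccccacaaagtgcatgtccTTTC
IFI35, chr17:43006664-43006783, plus strand: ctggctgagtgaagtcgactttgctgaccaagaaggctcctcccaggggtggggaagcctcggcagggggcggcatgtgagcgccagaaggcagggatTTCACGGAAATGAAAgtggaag
IFI16, chr1:159008871-159008990, plus strand: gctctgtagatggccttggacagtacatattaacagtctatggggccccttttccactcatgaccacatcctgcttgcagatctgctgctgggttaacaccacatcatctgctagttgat
IFI30, chr19:18173693-18173812, plus strand: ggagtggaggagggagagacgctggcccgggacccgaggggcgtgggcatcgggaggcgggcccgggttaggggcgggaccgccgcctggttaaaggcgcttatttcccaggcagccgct
ISG15, chr1:1013377-1013496, plus strand: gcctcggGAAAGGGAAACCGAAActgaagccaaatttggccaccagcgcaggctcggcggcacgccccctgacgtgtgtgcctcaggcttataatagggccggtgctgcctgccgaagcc
IFIT1, chr10:89392503-89392622, plus strand: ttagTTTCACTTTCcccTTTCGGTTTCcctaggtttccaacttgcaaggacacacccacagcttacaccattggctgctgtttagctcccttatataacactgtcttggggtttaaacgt
IFITM1, chr11:313920-314039, plus strand: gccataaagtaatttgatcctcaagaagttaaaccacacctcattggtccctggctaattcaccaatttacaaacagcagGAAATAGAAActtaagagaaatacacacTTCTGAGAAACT

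IFITM3 holds 2 ISRE matches close to its start, and in IFI35 a GAS match runs into a 1-base-spacer match. The GBP4 match begins 4 bases before the start and continues into transcribed sequence. IFI16 and IFI30 hold none of the 3 motifs in their windows, which says only that these letters are absent there. ISG15 holds 2 overlapping ISRE matches, IFIT1 holds 2 on the opposite strand, and IFITM1 holds 2 ISRE matches, of which the nearer overlaps a GAS match and runs past its start. Among genes higher in the knockout, 2 of 5 windows held the ISRE core, compared with 14 of 23 windows of genes that were tested and did not pass, as a description with no test.

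**Figure D1:**
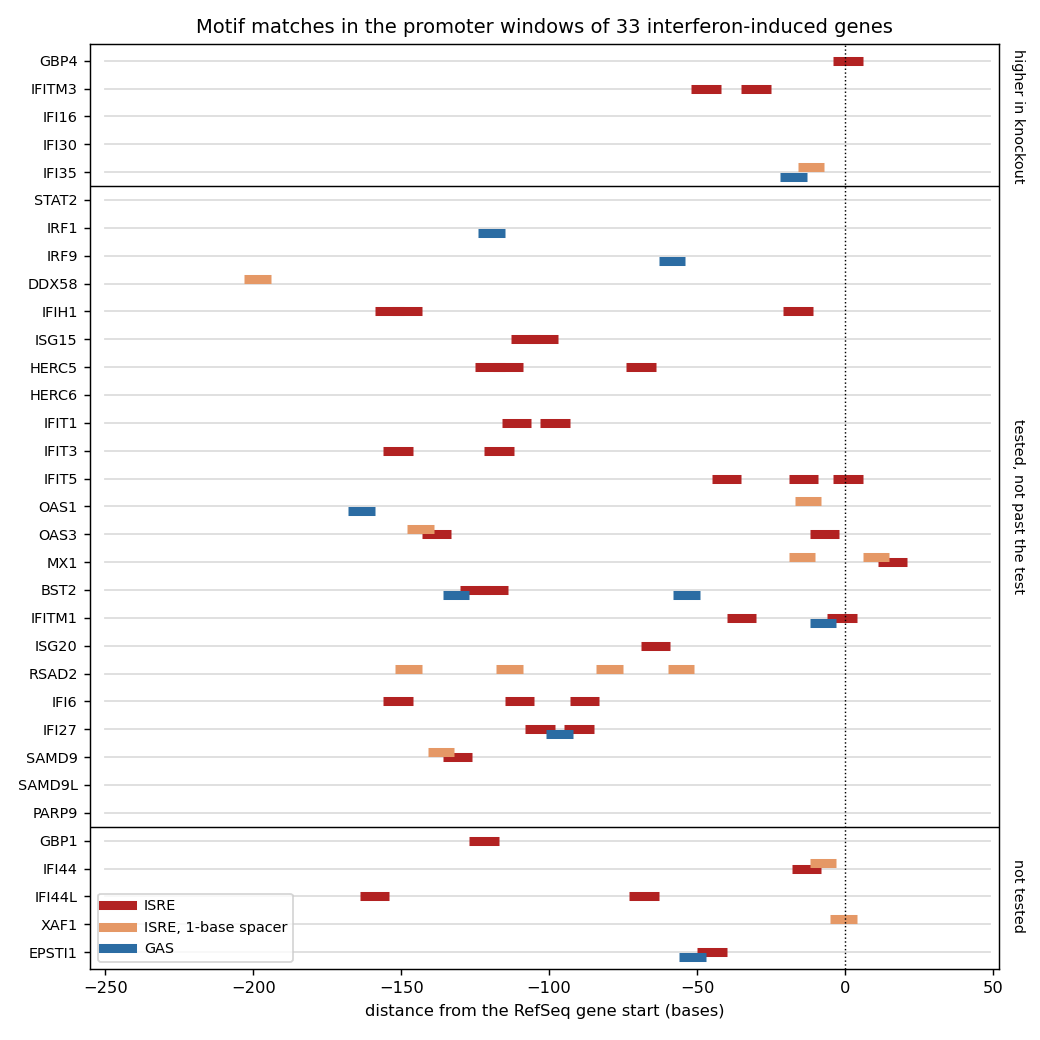
Positions of motif matches in the promoter windows of 33 interferon-induced genes, with the distance from the RefSeq gene start in bases on the x axis and genes on the y axis, in blocks by their test result. Red bars are ISRE cores, orange bars the variant with a 1-base spacer and blue bars GAS cores, and most ISRE matches lie before the start.

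Of the 35 tested genes 6 rose in the SKI knockout, none fell and 29 did not pass (edgeR quasi-likelihood test, Benjamini-Hochberg adjusted p under 0.05). The 6 were IFI16, IFI30, IFITM3, IFIT2, IFI35 and GBP4. GBP4 was kept for testing only because of its knockout level, as given with its values. Over all 16340 tested genes 6.19% were higher and 5.63% lower, so 11.8% were called in all, against 17.1% of the 35. At an unadjusted p under 0.05 there were 11 higher and 1 lower among the 35, or 12 in all, where 27.1% of all tested genes reached it. DESeq2 called 7 higher and 0 lower, adding MX1, against 16.1% of all genes (8.62% higher and 7.45% lower). In limma-voom 4 were higher and 0 lower, against 11.5% (5.87% higher and 5.68% lower). Adjusted p-values in the account below are edgeR's. Knockout and control values did not overlap for 10 genes that were higher and 2 that were lower, against 16% and 16.1% of all tested genes in those directions and 32.2% in all. The median log2 fold change was 0.27 over the 35, with 26 positive and 9 negative values, and -0.01 over all tested genes. In the authors' deposited table, the same 6 genes and MX1 were higher, 7 of 37 with an adjusted p, and 0 were lower, where 14.4% of all genes with an adjusted p were called, 8.09% higher and 6.35% lower.

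**Figure D2:**
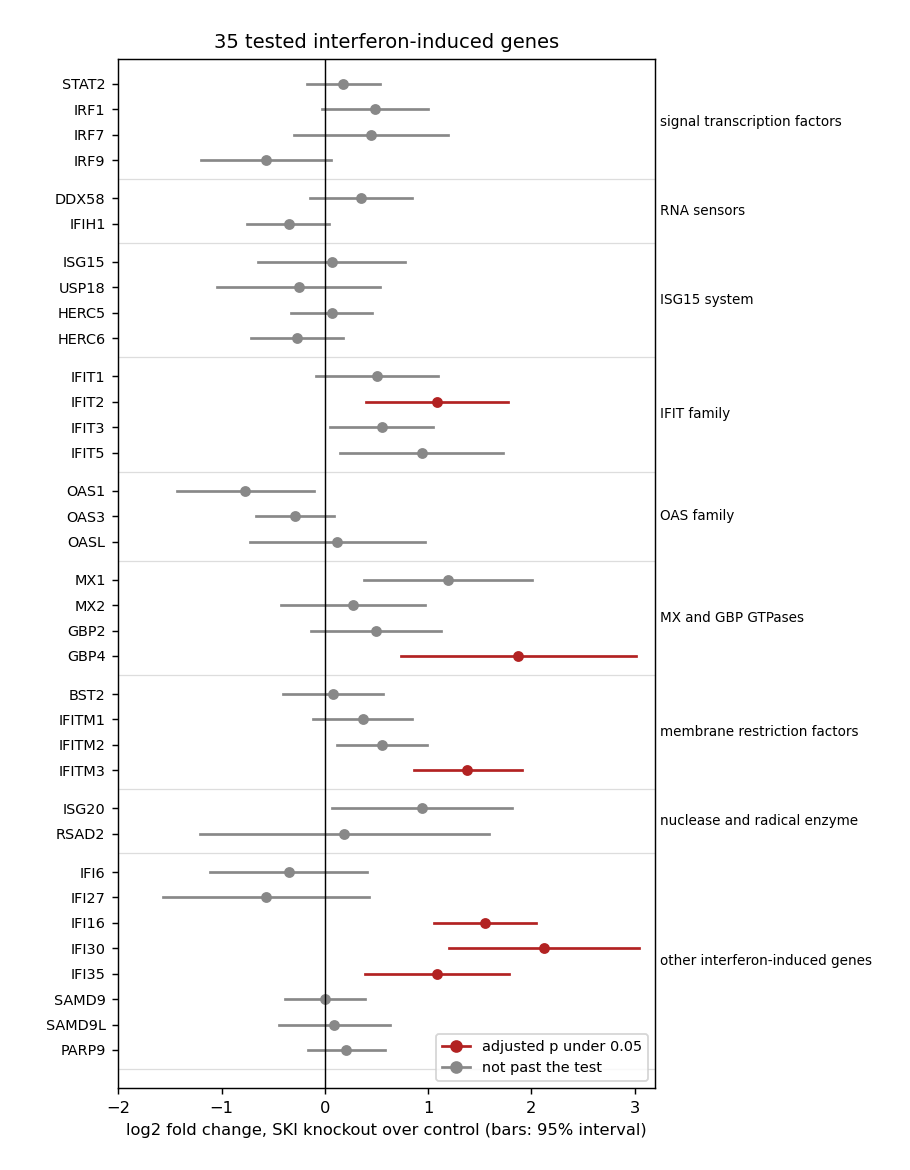
Log2 fold change of knockout over control for the 35 tested genes on the x axis, with genes on the y axis grouped by role. Points are edgeR estimates, bars their 95% intervals, and red marks the 6 genes with an adjusted p under 0.05, which run from 1.09 to 2.12.

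IFI16, a nuclear sensor of DNA, was the most abundant of the genes that rose. It stood at 43.9, 28.1 and 33.8 CPM across the control and at 105, 74.3 and 131 CPM across the knockout. Every knockout library was above every control library. The means were 35.3 ± 8.04 and 104 ± 28.4 CPM (SD, n = 3), a 2.94-fold difference with a log2 SE of 0.23 and an edgeR adjusted p of 0.00179. This call held in all 14 alternatives, with log2 fold changes from 1.37 to 1.77.

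IFI30 encodes a lysosomal thiol reductase that prepares antigens for presentation. Its control libraries stood at 12.0, 2.83 and 8.45 CPM and its knockout libraries at 29.2, 24.6 and 47.4 CPM. The groups did not overlap, although control values were themselves spread, with replicate 2 the lowest. IFI30 was 4.35-fold higher (log2 2.12, SE 0.42, edgeR adjusted p = 0.00812). It lies on chromosome 19, whose 694 well-expressed genes had a median log2 fold change of -0.48. With each gene centred on its chromosome, the IFI30 value was 2.60 with an adjusted p of 0.00265. The call was lost only without control replicate 3, where the log2 value was 2.19 and the adjusted p 0.0505.

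IFITM3, a membrane protein that blocks fusion of viruses in endosomes, differed from its neighbours in the IFITM cluster of chromosome 11 in abundance. IFITM3 was at 2.36, 2.58 and 2.89 CPM in the control and at 5.19, 7.20 and 8.06 CPM in the knockout. The lowest knockout library was well above the highest control library. IFITM3 rose 2.61-fold (log2 1.38, SE 0.24, adjusted p = 0.00434) and kept its call in all 14 alternatives. IFITM2 was at 172, 128 and 151 CPM in the control and at 172, 205 and 284 CPM in the knockout. Its lowest knockout library narrowly exceeded its highest control library, and the log2 fold change of 0.55 (SE 0.20) did not pass, with an adjusted p of 0.0966. IFITM1 was at 111, 75.6 and 105 CPM in the control and at 94.9, 115 and 166 CPM in the knockout, and its groups overlapped (log2 0.37, SE 0.22, adjusted p = 0.307). Whether IFITM3 moved more than its neighbours was not tested. The 3 genes are close copies and exons of IFITM1 and IFITM2 overlap, so reads shared between them leave all 3 levels uncertain. BST2, or tetherin, holds budding virus at the cell surface. It stood at 110, 79.8 and 105 CPM in the control and at 77.9, 90.3 and 143 CPM in the knockout, with overlapping groups and a log2 fold change of 0.08 (95% interval -0.40 to 0.56). BST2 also lies on chromosome 19, and with chromosome centring its value was 0.55 with an adjusted p of 0.106.

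The remaining genes that rose were IFIT2, IFI35 and GBP4, and each lost its call in several fits that left out 1 library. Such fits hold fewer libraries. Called genes over the whole table numbered 1932 in the main fit, and 1360, 932 and 740 without control replicates 1, 2 and 3. Without knockout replicates 1, 2 and 3 they numbered 1025, 2488 and 2253. IFIT2, which binds viral RNA, was at 5.0, 3.29 and 7.57 CPM in the control and at 13, 7.43 and 13.2 CPM in the knockout. Knockout replicate 2 lay just below control replicate 3, so the groups overlapped. The 2.12-fold difference (log2 1.09, SE 0.31) had an adjusted p of 0.0442. The call ended without control replicate 1 (adjusted p = 0.104) or 2 (0.147), without knockout replicate 1 (0.151) or 3 (0.0520), and with chromosome centring (0.0555). Exons of IFIT2 overlap LIPA on the opposite strand, and the sources used here give no strand setting for the counting.

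IFI35, an interferon-induced leucine zipper protein, stood at 5.31, 4.04 and 4.90 CPM in the control and at 6.98, 6.97 and 16.3 CPM in the knockout. The groups were apart, but knockout replicate 3 was more than both other knockout libraries together. Its log2 fold change was 1.09 (SE 0.32, adjusted p = 0.0479) and 0.58 (adjusted p = 0.101) without that library. The call also ended without any of control replicates 1 to 3 (0.0763, 0.159 and 0.149) or knockout replicate 1 (0.0543), in limma-voom (0.0751), with chromosome centring (0.0544) and with the stricter CPM filter (0.0529).

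GBP4, a guanylate-binding GTPase, was rare in both groups. It entered the test through the knockout alone: all 3 knockout libraries and 0 control libraries reached the filter level of 0.187 CPM (on library totals), so a gene kept in this way had to differ. The other 34 tested genes reached that level in libraries of both groups. Its reads numbered 6, 6 and 8 in the control libraries and 28, 9 and 35 in the knockout libraries, that is 0.126, 0.102 and 0.141 against 0.506, 0.186 and 0.667 CPM. Knockout replicate 2 came within a few reads of the control. The log2 fold change of 1.87 (SE 0.52, adjusted p = 0.0376) lost its call without control replicate 1, 2 or 3 (0.0915, 0.143 and 0.124), without knockout replicate 1 (0.121) and in limma-voom (0.0695), and without knockout replicate 3 the gene had too few reads to be tested.

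**Figure D3:**
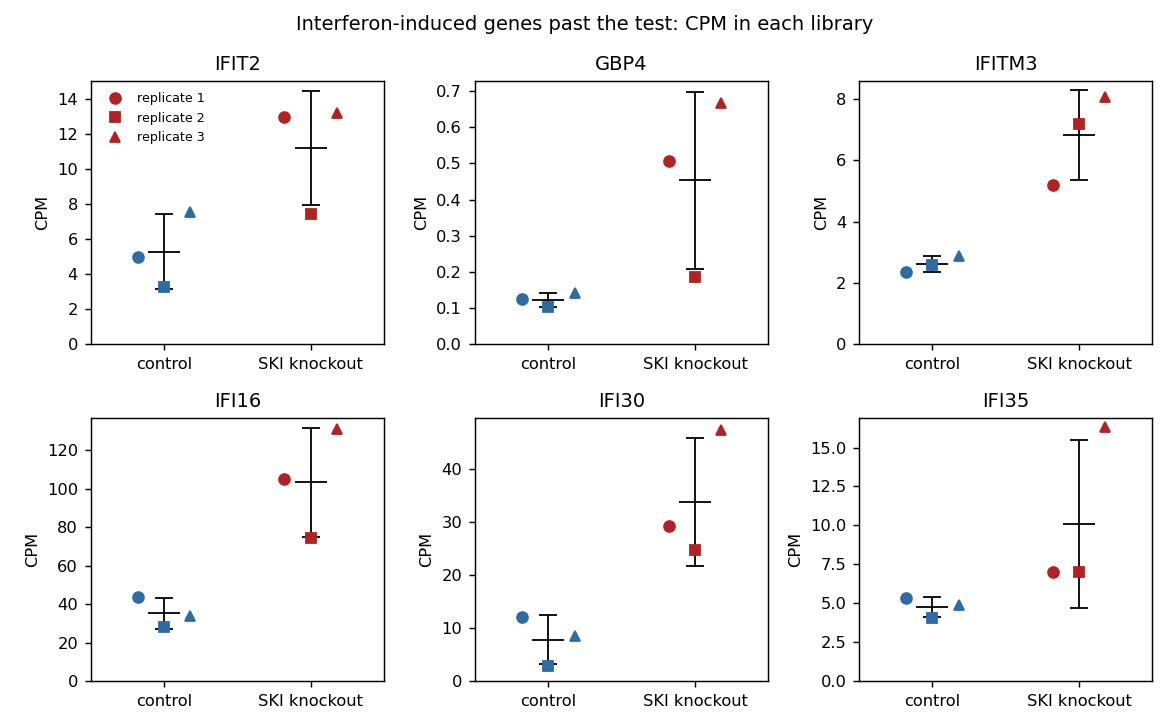
CPM on the y axis for the 6 genes that passed the test, with control and SKI knockout on the x axis. Points are libraries, marked by replicate number, and black bars are the mean and SD of 3. IFI16, IFI30 and IFITM3 separate clearly, whereas 1 knockout library of IFIT2 lies among the control values and knockout replicate 3 of IFI35, at 16.3 CPM, lies far above the others.

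None of the 4 transcription factors that carry the interferon signal passed the test, where 11.8% of all tested genes did. STAT2, a factor of the type I signal, was at 63.6, 51.8 and 57.7 CPM in the control and at 75.8, 57.7 and 62.6 CPM in the knockout. Those groups overlapped, with a log2 fold change of 0.18 (95% interval -0.17 to 0.53). IRF1, a primary target of interferon gamma, stood at 39.4, 27.7 and 29.8 CPM against 60.5, 30.8 and 44.3 CPM in the knockout, and IRF7, which amplifies type I interferon, at 15.8, 14.3 and 16.7 CPM against 19.5, 9.71 and 34.4 CPM. In both genes knockout replicate 2 lay within or below the control values, and knockout replicates 1 and 3 lay above every control value. Without knockout replicate 2 both passed, IRF1 with a log2 fold change of 0.73 (adjusted p = 0.0388) and IRF7 with 0.81 (0.0406). IRF9, the DNA-binding part of the type I complex, was lower in every knockout library, at 8.31, 3.83 and 9.28 CPM against 11.5, 10.9 and 9.39 CPM. Its log2 fold change of -0.57 had an adjusted p of 0.230. The interval of IRF9, -1.20 to 0.06, does not exclude a decrease of 2-fold.

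None of the 2 RNA sensors and 4 genes of the ISG15 system passed the test, where 11.8% of all tested genes did. DDX58, known as RIG-I, showed a log2 value of 0.35 (adjusted p = 0.352), and IFIH1, known as MDA5, one of -0.35 (0.238). IFIH1 was lower in every knockout library than in any control library, at 9.90, 10.5 and 11.0 against 13.1, 15.5 and 11.5 CPM. ISG15, a ubiquitin-like modifier, was at 14.0, 12.7 and 15.4 CPM in the control and at 10.6, 8.65 and 24.9 CPM in the knockout. Its knockout libraries thus lay on both sides of the control, and the log2 fold change was 0.07 (95% interval -0.65 to 0.78). HERC5, the ligase that attaches ISG15, was at 23.2, 24.1 and 26.7 CPM against 21.1, 24.9 and 31.4 CPM (log2 0.07, interval -0.33 to 0.46). Its relative HERC6 had a log2 fold change of -0.27 and USP18, which removes ISG15 and restrains the receptor, one of -0.25. No member of either group had an unadjusted p under 0.05, and DESeq2 and limma-voom called none. The shares of all tested genes were 27.1%, 16.1% and 11.5% in that order, so none among so few genes says little.

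In the IFIT family, the products of which bind viral RNA, all 4 log2 fold changes were positive and only IFIT2 passed. Of all 16340 tested genes, 8033 had a positive value and 6.19% passed as higher. IFIT3 stood at 6.86, 4.92 and 8.30 CPM in the control and at 9.05, 9.02 and 11.4 CPM in the knockout (log2 0.55, adjusted p = 0.143). IFIT5 stood at 0.649, 0.322 and 0.722 CPM against 0.922, 1.14 and 1.18 CPM (log2 0.94, adjusted p = 0.117). The groups were apart in both genes, as for 16% of all tested genes in that direction. IFIT1, the best known of the family, overlapped, at 4.75, 3.04 and 5.30 CPM against 5.85, 4.80 and 7.91 CPM (log2 0.51, adjusted p = 0.261).

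The OAS enzymes make oligoadenylates that activate RNase L, and none of the 3 tested passed. OAS3 was at 26.9, 28.1 and 34.2 CPM in the control and at 20.5, 27.6 and 24.9 CPM in the knockout (log2 -0.29, interval -0.67 to 0.09). OAS1 had the most negative value of all 35 genes, -0.77, with an adjusted p of 0.128, and was the only gene of the 35 that was lower at an unadjusted p under 0.05. OASL was at 0.12. OAS2 had 41 reads over the 6 libraries and was not tested. DESeq2 and limma-voom called no OAS gene. The shares of all tested genes were 11.8% in edgeR, 16.1% in DESeq2 and 11.5% in limma-voom, so none of 3 says little.

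MX1, a GTPase that traps viral nucleocapsids, was low and higher in all knockout libraries. It had 0.460, 0.339 and 0.476 CPM in the control and 0.723, 0.786 and 1.41 CPM in the knockout, with a log2 fold change of 1.19 (SE 0.37) and an adjusted p of 0.0609. It passed in DESeq2 (adjusted p = 0.0402), without the filter on low counts (0.0218) and without knockout replicate 2 (0.0479). MX2 overlapped between the groups, with a log2 value of 0.27. GBP2 stood at 9.44, 9.05 and 6.64 CPM against 6.63, 15.6 and 13.2 CPM (log2 0.50, adjusted p = 0.294), and GBP1 had 16 reads in all.

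Among the other genes, ISG20, an exonuclease, showed a log2 value of 0.94 (adjusted p = 0.152) and RSAD2, or viperin, one of 0.19 with a wide interval of -1.21 to 1.59. IFI6, a mitochondrial protein, stood at 9.08, 5.57 and 9.07 CPM in the control and at 3.49, 5.13 and 10.0 CPM in the knockout. Knockout replicate 3 was here the highest and replicate 1 the lowest of all libraries. Without replicate 3 IFI6 passed as lower, with a log2 fold change of -0.86 and an adjusted p of 0.0489. IFI27 had a value of -0.57 (adjusted p = 0.459). SAMD9, an antiviral protein mutated in a bone marrow failure syndrome, was at 12.7, 14.1 and 14.9 CPM in the control and at 15.7, 14.3 and 11.7 CPM in the knockout, a log2 fold change of 0.00 with an interval of -0.39 to 0.39. SAMD9L had a value of 0.09, and PARP9, a partner of the ubiquitin ligase DTX3L, one of 0.21. IFI44L had no read in any library. EPSTI1 had 2 reads, XAF1 27 and IFI44 33, so none of these was tested.

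For 16 of the 29 genes that did not pass, the 95% interval of the log2 fold change lay inside a 2-fold change in either direction. For 8 it reached 2-fold higher or more and for 6 it reached 2-fold lower or more, with RSAD2 counted in both. At this depth and spread a 2-fold change was thus not excluded for 13 of them.

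Levels differed far more between genes than between groups. Per kilobase of the deposited gene length, IFITM2 had 115 ± 16.8 RPKM (CPM divided by that length in kilobases, SD, n = 3) in the control, IFITM1 90.0 ± 17.5 and BST2 87.6 ± 14.3. The last 2 did not differ beyond their spread. ISG15 followed at 19.8 ± 1.89 RPKM, and STAT2 was next at 9.45 ± 0.968 and IFI6 at 9.14 ± 2.34 RPKM, again not apart. In the control 4 genes were at 10 RPKM or above, 21 between 1 and 10 and 16 below 1 RPKM, 6 of the last too low to test. These classes and the order of genes depend on the deposited lengths, which run from 711 bases for ISG15 to 13175 for MX2. IFI16 went from 6.66 ± 1.52 to 19.6 ± 5.37 RPKM and IFI30 from 3.13 ± 1.86 to 13.6 ± 4.86 RPKM, which placed both among the better expressed of the 41 in the knockout. IFITM3, at 1.94 ± 0.196 RPKM in the control and 5.06 ± 1.09 RPKM in the knockout, stayed far below IFITM1 and IFITM2. Exons of IRF1, ISG15, OAS1, MX1, GBP4, IFITM3, RSAD2, XAF1 and PARP9 overlap an antisense neighbour, and exons of IRF9, IFIT2, GBP2 and IFI30 a neighbour in sense, so their levels may include or miss shared reads.

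Libraries of 1 group were not alike in these genes. Knockout replicate 3 was the highest of the 6 libraries for 21 of the 35 tested genes, against 26.4% of all tested genes, and control replicate 2 was the lowest for 16, against 19% of them. All 6 genes that rose had their highest value in knockout replicate 3, and 5 of the 6 their lowest in control replicate 2. For IFIT2 the highest value was a near tie, at 13.2 CPM against 13 CPM in knockout replicate 1. These 6 were picked as higher in the same libraries, which favours a knockout library as highest and a control library as lowest. Over the 35 genes the median log2 deviation from the control mean was 0.18, 0.11 and 0.76 in knockout replicates 1 to 3, and 0.13, -0.22 and 0.12 in the control replicates. Over all tested genes those medians lay between -0.01 and 0.01. The summed level of the 41 genes was 756, 585 and 711 CPM in the control and 815, 796 and 1160 CPM in the knockout. Of these sums BST2, IFITM1 and IFITM2 made up 392, 283 and 361 CPM in the control and 345, 410 and 593 CPM in the knockout. Without those 3 genes the sums were 364, 301 and 350 CPM against 470, 386 and 569 CPM. Leaving out knockout replicate 3 lowered the median log2 fold change from 0.27 to 0.13 and left 3 genes that rose, IFI16, IFI30 and IFITM3, and 1 that fell, IFI6. In that fit 7.16% of all tested genes were higher and 6.43% lower, 2253 in all in place of 1932.

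**Figure D4:**
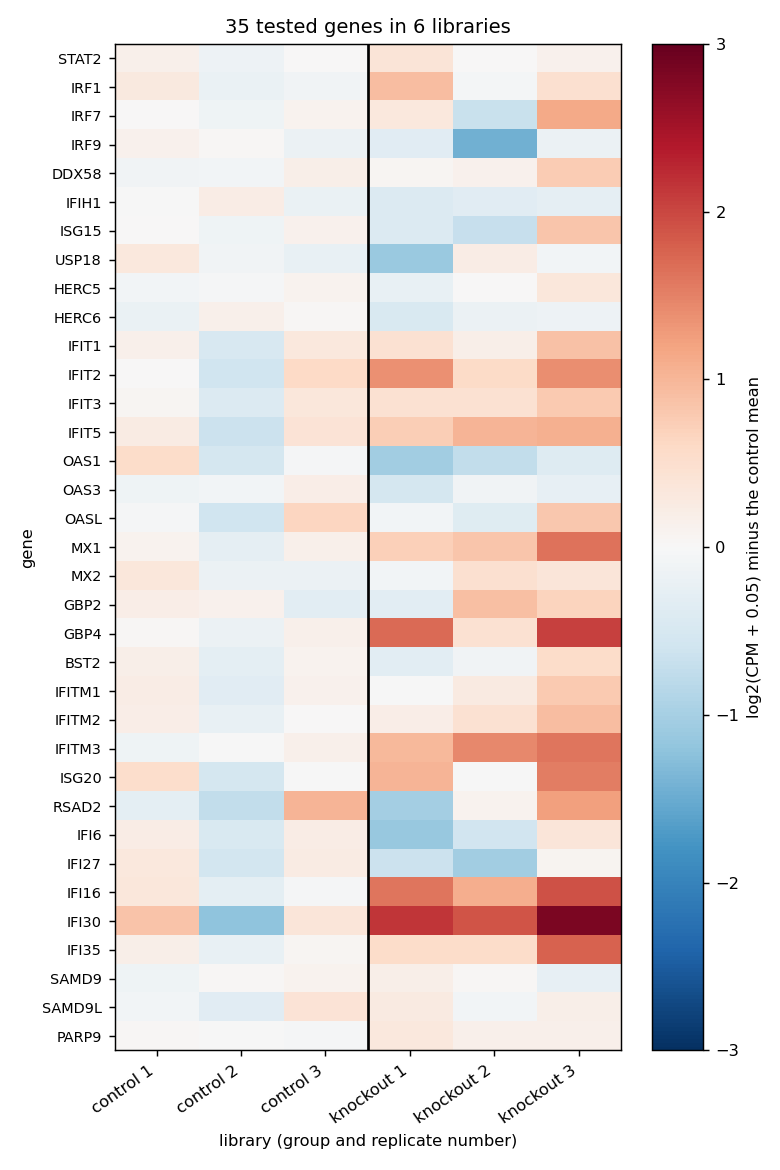
Log2(CPM + 0.05) of the 35 tested genes (rows) in the 6 libraries (columns) relative to the mean of the 3 control libraries, red for higher and blue for lower. The column of knockout replicate 3 is the reddest. Rows above the control mean in all 3 knockout libraries include IFI16, IFI30, IFITM3, IFIT2, IFI35 and GBP4. They also include MX1 and IFIT5, which did not pass the test.

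Of 114 other genes of the interferon pathway 79 were tested, of which 15 rose and 4 fell, against 6.19% and 5.63% of all tested genes. They were listed by role, with earlier results of these data known. CXCL11 was kept for testing only because of its knockout level, and AIM2, which did not pass, only because of its control level. None of the 21 interferon genes had enough reads to be tested, and 19 of them had none in any library. IFNB1, the gene of interferon beta, had 0, 2 and 1 reads in the control libraries and 13, 0 and 19 in the knockout libraries. IFNB1 reads above the limit of 3 counts were thus found in knockout replicates 1 and 3 alone, and knockout replicate 2, with no read, allows up to 0.0621 CPM. In the authors' deposited table IFNB1 was listed as higher, at 1.12 on the log2 scale (adjusted p = 0.0395).

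Of 8 tested genes of the receptors and their kinases, 1 rose and 1 fell, where 6.19% of all tested genes rose and 5.63% fell. IFNAR1 and IFNAR2, the chains of the type I receptor, had log2 fold changes of 0.01 and -0.02. IFNGR1, the ligand-binding chain for interferon gamma, was at 43.3 ± 4.51 CPM in the control and rose to 78.1 ± 18.9 CPM in the knockout (SD, n = 3), a log2 change of 0.85 with an adjusted p of 0.0147. The kinase gene TYK2 was at 145 ± 16.1 CPM and fell to 78.5 ± 6.78 CPM (SD, n = 3), a log2 change of -0.89 with an adjusted p of 0.00379. IRF3, the factor that switches on interferon beta, went down from 137 ± 4.14 to 85.2 ± 20.3 CPM (SD, n = 3), a log2 change of -0.69 with an adjusted p of 0.0265. IFNGR1 lies on chromosome 6, with a median of 0.43, and TYK2 and IRF3 on chromosome 19, with a median of -0.48. Centred on their chromosomes, these genes had log2 values of 0.42, -0.40 and -0.21 and adjusted p-values of 0.195, 0.145 and 0.438, so none kept its call. The IRF3 call was also lost without any of the control replicates (adjusted p up to 0.102) or knockout replicates 1 or 2 (0.115 and 0.0662), and that of IFNGR1 without control replicate 3 (0.0903) or knockout replicate 1 (0.0615).

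Of 13 tested genes of nucleic acid sensing 2 rose and 1 fell, against 6.19% and 5.63% of all tested genes. DHX58, or LGP2, a regulator of the RNA sensors, rose from 8.16, 6.60 and 9.04 CPM to 16.9, 14.3 and 19.4 CPM (log2 1.09, SE 0.20, adjusted p = 0.00531), in contrast in test result to DDX58 and IFIH1, a difference that was not itself tested. TLR8, an endosomal receptor for RNA, was rare and reached the filter level in 1 control library and all 3 knockout libraries, at 0.141 ± 0.0646 and 0.468 ± 0.00949 CPM (SD, n = 3, adjusted p = 0.0246). TMEM173, or STING, the adaptor of DNA sensing, fell from 55.1 ± 2.31 to 35.2 ± 5.03 CPM (SD, n = 3), a log2 change of -0.65 with an adjusted p of 0.0201. The calls of TLR8 and TMEM173 were lost without control replicate 1 (0.0857 and 0.0694), control replicate 2 (0.126 and 0.0895) or knockout replicate 1 (0.0768 and 0.0757), and that of TMEM173 also without control replicate 3 (0.0684). Of 5 tested feedback inhibitors none passed in edgeR, 1 had an unadjusted p under 0.05, and DESeq2 called 1 and limma-voom 0. The shares of all tested genes were 11.8%, 27.1%, 16.1% and 11.5% in that order.

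Among 42 tested further interferon-induced genes 10 rose and 1, TRIM14, fell, against 6.19% and 5.63% of all tested genes. The median log2 fold change of the 42 was 0.18. APOBEC3G, a cytidine deaminase that mutates retroviral DNA, was at 24.7, 9.67 and 11.7 CPM in the control and at 94.5, 103 and 137 CPM in the knockout. All knockout libraries were far above the control, 7.29-fold by the fit (log2 SE 0.32, adjusted p = 0.000437). APOBEC3F, its neighbour on chromosome 22, was at 2.66 ± 0.817 CPM in the control and 10.6 ± 0.208 CPM in the knockout (SD, n = 3), with an adjusted p of 0.000834, and copies of this family share sequence. Chromosome 22 had a median of 0.23, and after centring the log2 values were 2.64 and 1.78 in place of 2.87 and 2.0. SLFN5, a schlafen protein, was at 1.84, 1.0 and 2.18 CPM in the control and at 27.8, 7.29 and 23.3 CPM in the knockout, with a log2 fold change of 3.54 (adjusted p = 0.000972). The chemokine gene CXCL11 rose from 0.130 ± 0.0588 to 1.22 ± 0.567 CPM (SD, n = 3), by 3.18 on the log2 scale (adjusted p = 0.00274). It reached the filter level in the knockout libraries alone, and a gene kept in this way, like GBP4, had to differ. TNFSF10, which encodes the death ligand TRAIL, rose from 2.72 ± 0.623 to 7.97 ± 1.23 CPM (SD, n = 3, adjusted p = 0.00274), and UBA7, the activating enzyme for ISG15, from 11.6 ± 1.39 to 30.4 ± 9.19 CPM (SD, n = 3, adjusted p = 0.00281). These 6 genes kept their calls in every alternative that tested them, which was 13 for CXCL11 and 14 for each of the others. The other 4, GBP3, APOL1, MOV10 and PLSCR1, had log2 fold changes of 1.12, 2.47, 0.97 and 0.60. GBP3 and APOL1 kept their calls in all 14 alternatives. MOV10 lost its call without control replicate 1, 2 or 3 (0.0727, 0.143 and 0.0617) or knockout replicate 1 (0.0507). PLSCR1 lost its call on leaving out the same libraries (0.109, 0.108, 0.178 and 0.140), with library totals (0.0572), with chromosome centring (0.0576) and with a replicate block (0.0561). TRIM14 showed a log2 value of -0.79 (adjusted p = 0.0286) and lost its call with chromosome centring (-0.57, 0.0874) and without any control replicate (up to 0.138) or knockout replicate 1 (0.108).

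Of 8 tested targets of interferon gamma 2 rose, against 6.19% of all tested genes. PSMB9, an immunoproteasome subunit, was at 12.1, 8.74 and 12.0 CPM against 20.8, 20.7 and 39.7 CPM (log2 1.31, adjusted p = 0.00863), with knockout replicate 3 again the highest. PSMB9 lies on chromosome 6 and was at 0.87 with an adjusted p of 0.0576 after chromosome centring. WARS, a tryptophanyl-tRNA synthetase, went from 519 ± 51.1 to 963 ± 96.4 CPM (SD, n = 3), by 0.89 on the log2 scale (adjusted p = 0.00709), and missed the threshold without control replicate 3 (0.0559).

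**Figure D5:**
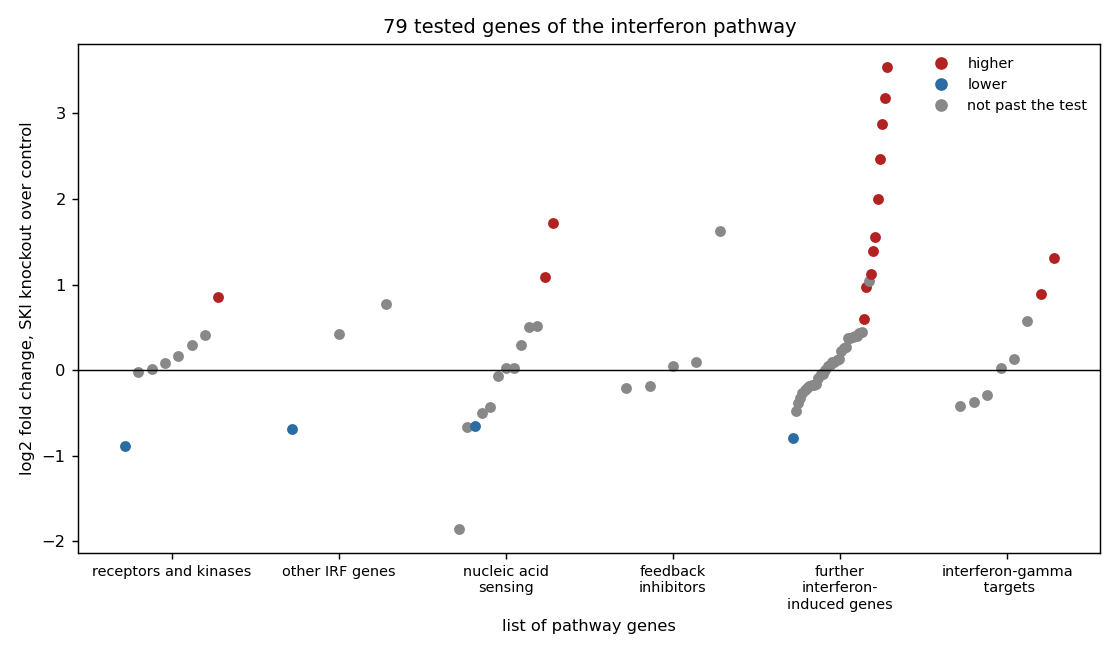
Log2 fold change of knockout over control on the y axis for 79 tested genes of the interferon pathway that are not among the 41, with 6 lists on the x axis and 1 point per gene in rising order within a list. Red points passed the test as higher and blue points as lower, and the highest point, SLFN5, is at 3.54.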

How the data were processed

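All 6 libraries came from a kit for stranded mRNA, as the labels state. Builds hg19 and GRCh37 and the tools TopHat2, featureCounts, Subread, bcl2fastq, DESeq and DESeq2 stand in the submitters' processing notes, without versions, and no source used here gives the annotation, strand setting or treatment of shared reads. Raw counts for every gene were deposited together with a gene length in bases, from which RPKM values were computed here. The authors also deposited a table with log2 fold changes, standard errors and adjusted p-values, quoted as the authors' values.

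Count columns were matched to libraries by group and replicate number in the titles. Genes were kept by filterByExpr, scaled by TMM and tested with edgeR's quasi-likelihood F test, with group as the only term (edgeR 4.0.16, limma 3.58.1, DESeq2 1.42.0, R 4.3.3), and p-values were adjusted over all 16340 genes. SE were derived from the F statistic, intervals from its degrees of freedom. CPM use TMM-scaled totals. The members and gene lists were chosen with earlier results of these data known. Values are printed for all genes past the threshold and the 10 most abundant of the rest, and for up to 6 genes per pathway list. Another gene that the rule names is not reported here and was left out of its list. Others named were chosen after their values were seen. Chromosomes and overlaps came from GENCODE 29 and RefSeq by symbol (84.9% of tested genes have a chromosome). Libraries of a group differed beyond counting noise in 63.4% to 79.8% of genes with at least 100 summed reads. The fit was tested on simulated data.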

Additional observations from a re-analysis of the deposited data

How the results depend on the processing

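Of the results for the 41 genes, no direction of a called value reversed in any of the 14 alternatives. The number that rose was 6 with DESeq2 size factors (6.3% of all genes higher) and with library totals (6.19%), 9 without a filter (5.43%), 4 with a CPM of at least 1 in 3 libraries (6.7%), 7 in DESeq2, 4 in limma-voom and 4 with chromosome centring (5.17%). Leaving out 1 library at a time gave 3 to 10 higher (10 without knockout replicate 2) and 0 to 1 lower, with a median log2 fold change of 0.13 to 0.44. Pathway genes were 11 to 18 higher and 1 to 7 lower in the same fits. Of all genes, 2.65% to 8.36% were higher and 1.8% to 6.43% lower. Called genes in all numbered 740 to 2488. The lowest count was without control replicate 3, with 932 without control replicate 2 and 1025 without knockout replicate 1. Those fits hold fewer libraries. Pathway genes called lower were 1 with chromosome centring in place of 4, where 3.39% of all genes were lower in place of 5.63%. IFI16 and IFITM3 kept their calls in 14 of 14 alternatives, IFI30 in 13, IFIT2 in 9, GBP4 in 7 of 12 in which it could be tested, and IFI35 in 6.

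With the replicate number as a block, 6 of the 41 genes were higher, and 16 pathway genes were higher and 4 lower. Of all genes, 6.75% were higher and 6.14% lower there, with 2107 calls in all in place of 1932. Same-numbered libraries deviated from their group means with correlations of -0.17, 0.42 and -0.09, and not every library correlated best with its own number, so the numbers are not taken to pair the libraries. Depth limits GBP4, IFIT5, MX1, RSAD2 and IFI27, with at most 259 reads each, and the 6 genes not tested.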

Other observations

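Paralogues of IFI16, APOBEC3G and SLFN5 were looked up after these values were seen. Apart from AIM2 and SLFN11, which belong to the pathway lists, they are given as levels with no test. IFI16 belongs to the PYHIN family of DNA-binding proteins on chromosome 1, and its relatives had lower means in the knockout. MNDA, a myeloid nuclear antigen, was at 11.0 ± 1.81 CPM in the control and 7.23 ± 1.58 CPM in the knockout (SD, n = 3, groups overlapping). AIM2, a DNA sensor of the inflammasome, was at 0.377 ± 0.0544 and 0.0997 ± 0.0956 CPM (SD, n = 3, edgeR adjusted p = 0.0852). AIM2 reached the filter level in the control libraries alone, and a gene kept in this way had to differ. PYHIN1, with 62 reads in all, was at 0.268 ± 0.157 and 0.121 ± 0.0457 CPM (SD, n = 3, groups overlapping).

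In the APOBEC3 cluster, higher levels were not limited to APOBEC3F and APOBEC3G. APOBEC3B stood at 16.6, 14.1 and 14.6 CPM in the control and at 28, 30.6 and 52.4 CPM in the knockout, APOBEC3D at 5.47 ± 1.51 and 15.0 ± 1.30 CPM (SD, n = 3), and APOBEC3H at 0.0710 ± 0.0543 and 1.31 ± 0.372 CPM (SD, n = 3). APOBEC3C, the most abundant, overlapped between groups, at 102 ± 10.6 and 141 ± 27.2 CPM (SD, n = 3). Among schlafen genes, SLFN12L was at 0.123 ± 0.0369 and 1.07 ± 0.207 CPM (SD, n = 3) beside SLFN5. SLFN12 was at 2.58 ± 0.653 and 3.55 ± 0.133 CPM (SD, n = 3), with the groups apart. By contrast SLFN11, at 122 ± 1.77 and 119 ± 29.5 CPM (edgeR adjusted p = 0.928), and SLFN13, at 104 ± 15.0 and 127 ± 21.9 CPM (SD, n = 3 each), overlapped, and SLFN14 had 1 read.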
